A study of Saccharomyces cerevisiae with 13 samples.

Results

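The genes described here are 32 heat shock proteins and chaperones of Saccharomyces cerevisiae, out of 5449 genes measured on the same arrays. They were taken by name, though with earlier results of these data known. They are the cytosolic and ribosome-associated Hsp70 proteins, their exchange factors and J-domain partners, and both Hsp90 proteins and their co-chaperones. The rest are the disaggregase HSP104, small and membrane heat shock proteins, the mitochondrial chaperones and the regulator HSF1. All 32 had a probe set, and the brightest stood for a gene with several. None of the 32 was at or below the background of an array, taken as the 95th percentile of probe sets for another yeast (31.2 to 39 on the 13 arrays), so every gene had a measurable level in every sample. Of the 32, 30 lie off chromosome XVI, and HSP82 and SSE1 lie on it.

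RNA came from glucose-limited chemostats run with little oxygen, where the dilution rate sets growth. Furfural, an aldehyde formed when plant biomass is broken down, was in the feed of every culture, so there is no furfural-free group. TMB3400, the parent strain, gave 2 samples with 15 mM furfural in the feed and 3 with 25 mM. TMB3400-FT30-3, called FT30-3 here, is 1 strain adapted from it to high furfural, and gave 3 samples at 15 mM, 2 at 25 mM and 3 at 36 mM. At 36 mM the parent washed out, so that level holds FT30-3 alone and no strain comparison can be made there. Replicates are described as biological, though how separate the cultures were is not said. More RNA per cell and more cells expressing a gene cannot be told apart in such bulk samples.

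Chaperones bind proteins that are unfolded or still folding. Hsp70 proteins hold exposed stretches in cycles of ATP hydrolysis that J-domain proteins start and exchange factors end, Hsp90 takes over a narrower set of clients with the help of co-chaperones, and Hsp104 pulls proteins out of aggregates. In yeast the heat shock factor Hsf1 drives many of the cytosolic genes, while Msn2 and Msn4 drive a broader set of general stress genes, and several chaperone genes, such as HSP26, HSP12 and HSP104, are known to answer to the latter as well.

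Intensities are on the deposited linear scale, where each gene has its own probe set, so levels are compared between samples and never between genes. Each difference is on the log2 scale and carries its standard error and limma's p after adjustment over all probe sets, and a gene is called where that p is under 0.05. The median of all genes moved with dose on the deposited scale (0.13 from 15 to 25 mM in either strain and 0.17 from 15 to 36 mM in FT30-3), so dose differences are given after each array's median was set to a common value. Between arrays of 1 group, r across probe sets was 0.966 to 0.995. Replicate 1 of FT30-3 at 36 mM stood apart from the other two in several of the genes below. The pattern over all 32 genes and 13 arrays is shown first.

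**Figure D1:**
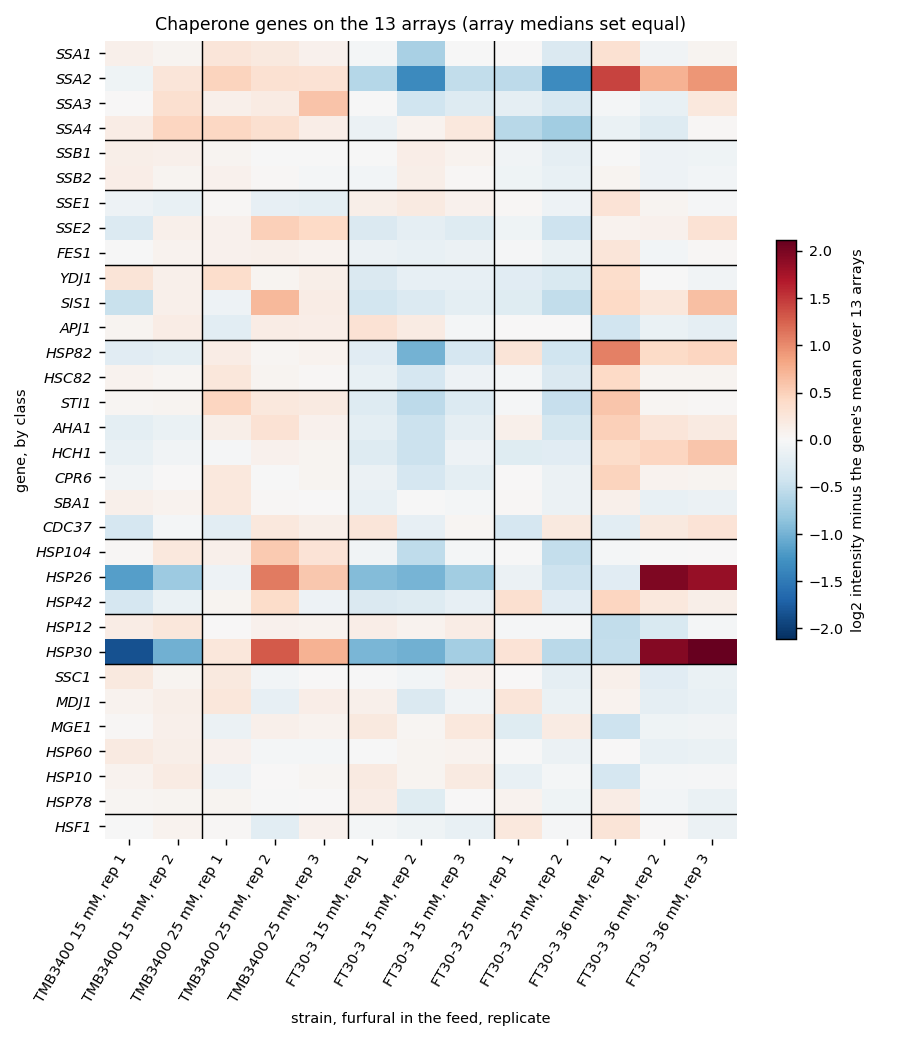
Each of the 32 genes (rows, by class) on each of the 13 arrays (columns), coloured by log2 intensity minus that gene's mean over the arrays, after array medians were set equal. SSA2, HSP26 and HSP30 carry the strongest colours, HSP26 and HSP30 are pale on replicate 1 of FT30-3 at 36 mM, and the mitochondrial chaperones near the bottom are pale throughout.

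In FT30-3, 11 of the 32 genes rose and 2 fell from 15 to 36 mM furfural, with a median log2 change of 0.20 over the 32 against -0.03 over all genes. The 11 were both Hsp90 genes, 4 of the 6 Hsp90 co-chaperones (STI1, AHA1, HCH1, CPR6), the Hsp70 gene SSA2, the J-domain gene SIS1, the small heat shock genes HSP26 and HSP42, and HSP30. Over all genes 11.0% were higher and 11.2% lower in the same comparison, so a larger share of the 32 than of all genes rose. The 2 falls are too few to set against the share of all genes lower. With array weights 12 of the 32 were higher and 7 lower, against 20.1% and 24.6% of all genes. These shares were not tested against each other. On the deposited scale the count was 15 higher and 0 lower, where 27.4% of all genes were higher and 4.73% lower, a shift towards rises over all genes too. Without replicate 1 of FT30-3 at 36 mM it was 7 higher and 1 lower, against 11.0% and 12.6% of all genes. The total was 6 without replicate 1, 2 or 3 of FT30-3 at 15 mM. In those fits 7.07% to 7.95% of all genes were higher and 6.46% to 7.85% lower. A fit to the compared arrays alone called 8, all higher, against 6.83% of all genes higher and 6.63% lower. That fit did not call HSC82, STI1, CPR6, HSP30, HSP12 or APJ1, and called SSE2 as higher.

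SSA2 encodes a constitutive cytosolic Hsp70 that folds new proteins and helps move them into organelles. Its intensity was 1505, 880.8 and 1545 in FT30-3 at 15 mM, 1721 and 994 at 25 mM, and 7052, 4335 and 4858 at 36 mM. In TMB3400 it was 2108 and 2662 at 15 mM and 3414, 3054 and 3119 at 25 mM. The 36 mM arrays lay above the other 10, and every FT30-3 array at 15 and 25 mM lay below all 5 parent arrays. From 15 to 36 mM SSA2 rose by 1.86 ± 0.26, or 3.63-fold (adjusted p = 0.000671). From 25 to 36 mM it rose by 1.98 ± 0.29 (adjusted p = 0.00256). The change from 15 to 25 mM in FT30-3 was -0.12 ± 0.29 (adjusted p = 0.94). These comparisons share arrays, as all those within FT30-3 do, and are not independent.

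None of the other cytosolic Hsp70 genes was called as higher in this comparison. SSA1, the close relative of SSA2, read 5832, 3631 and 5801 at 15 mM and 8567, 6442 and 6958 at 36 mM in FT30-3, and the difference of 0.35 ± 0.17 did not pass (adjusted p = 0.169). On the deposited scale, where its groups did not overlap, it was 0.55 and passed (adjusted p = 0.037). Whether SSA1 and SSA2 differed in their change was not tested. SSA1 and SSA2 are near-identical, so their probe sets may share signal and both values are uncertain. SSA3, a heat-induced form, differed by 0.24 ± 0.16 (adjusted p = 0.299).

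SSA4, the form most strongly induced by heat, moved differently. Its intensity in FT30-3 was 1110, 1247 and 1373 at 15 mM, 884 and 798.6 at 25 mM, and 1249, 1126 and 1354 at 36 mM. Both arrays at 25 mM lay below the other 11 of the series, and the arrays at 15 and 36 mM overlapped. From 15 to 25 mM it fell by 0.72 ± 0.14 (adjusted p = 0.0226), while 36 against 25 mM gave 0.52 ± 0.14 (adjusted p = 0.0509) and 36 against 15 mM gave -0.20 ± 0.13 (adjusted p = 0.28). The fall at 25 mM was the only change called among the 32 in that comparison, where 0.918% of all genes were lower. It rests on 2 arrays, and did not pass without either of them, without replicate 2 or 3 at 15 mM (adjusted p between 0.0764 and 0.167 over these 4), or in a fit to the compared arrays alone (0.0557).

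Both Hsp90 genes rose from 15 to 36 mM in FT30-3. Whether the probe sets of these 2 related genes share signal was not tested, so their rises may not be independent. HSP82, the stress-inducible copy, was at 2384, 1376 and 2129 at 15 mM, 3744 and 2303 at 25 mM, and 6699, 4222 and 4254 at 36 mM. Its 36 mM arrays lay above all others of either strain, and it rose by 1.17 ± 0.23, or 2.25-fold (adjusted p = 0.00515). HSC82, the constitutive copy, was at 7511, 6379 and 7488 at 15 mM and 12740, 9811 and 9691 at 36 mM, without overlap, a rise of 0.39 ± 0.12 (adjusted p = 0.0424). For both, replicate 1 was the highest of the 36 mM arrays. Without it HSC82 did not pass (0.27 ± 0.11, adjusted p = 0.096), while HSP82 did (0.96 ± 0.23, adjusted p = 0.0145). HSC82 also failed without replicate 1, 2 or 3 at 15 mM (0.0632 to 0.138). Of the parent arrays, leaving out replicate 1 or 2 at 15 mM or replicate 2 or 3 at 25 mM also ended that call (0.0555 to 0.0603).

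Among the co-chaperones, HCH1 and AHA1 encode related activators of the Hsp90 ATPase. HCH1 had intensities of 3031, 2605 and 3261 in FT30-3 at 15 mM, 3361 and 3386 at 25 mM, and 5436, 5655 and 6089 at 36 mM. The 3 arrays at 36 mM were close together and above every other array of the series, whose highest was 4163 in TMB3400 at 25 mM. HCH1 rose by 0.76 ± 0.10 from 15 to 36 mM (adjusted p = 0.000405) and by 0.73 ± 0.11 from 25 to 36 mM (adjusted p = 0.00262). AHA1 was at 2607, 2150 and 2556 at 15 mM and at 4857, 4084 and 3820 at 36 mM. It rose by 0.60 ± 0.14 (adjusted p = 0.00935) and its groups did not overlap.

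STI1, which bridges Hsp70 and Hsp90, read 3306, 2674 and 3183 at 15 mM and 6882, 4645 and 4505 at 36 mM, a rise of 0.59 ± 0.17 (adjusted p = 0.0287). CPR6, a prolyl isomerase that binds Hsp90, read 3397, 2829 and 3116 at 15 mM and 5846, 4425 and 4254 at 36 mM, a rise of 0.43 ± 0.12 (adjusted p = 0.0269). In both genes the groups were apart and replicate 1 was again highest, and neither passed without it (0.40 ± 0.14 with adjusted p = 0.064 for STI1, and 0.29 ± 0.10 with adjusted p = 0.0504 for CPR6). STI1 also failed without replicate 1, 2 or 3 at 15 mM (0.0546 to 0.101), and CPR6 without replicate 2 or 3 there (0.0969 and 0.0642). The remaining co-chaperones were near 0. SBA1, the p23 homologue that slows the cycle, differed by 0.01 ± 0.10 (95% interval -0.21 to 0.22), and CDC37, which hands kinases to Hsp90, by 0.05 ± 0.19 (95% interval -0.38 to 0.47).

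**Figure D2:**
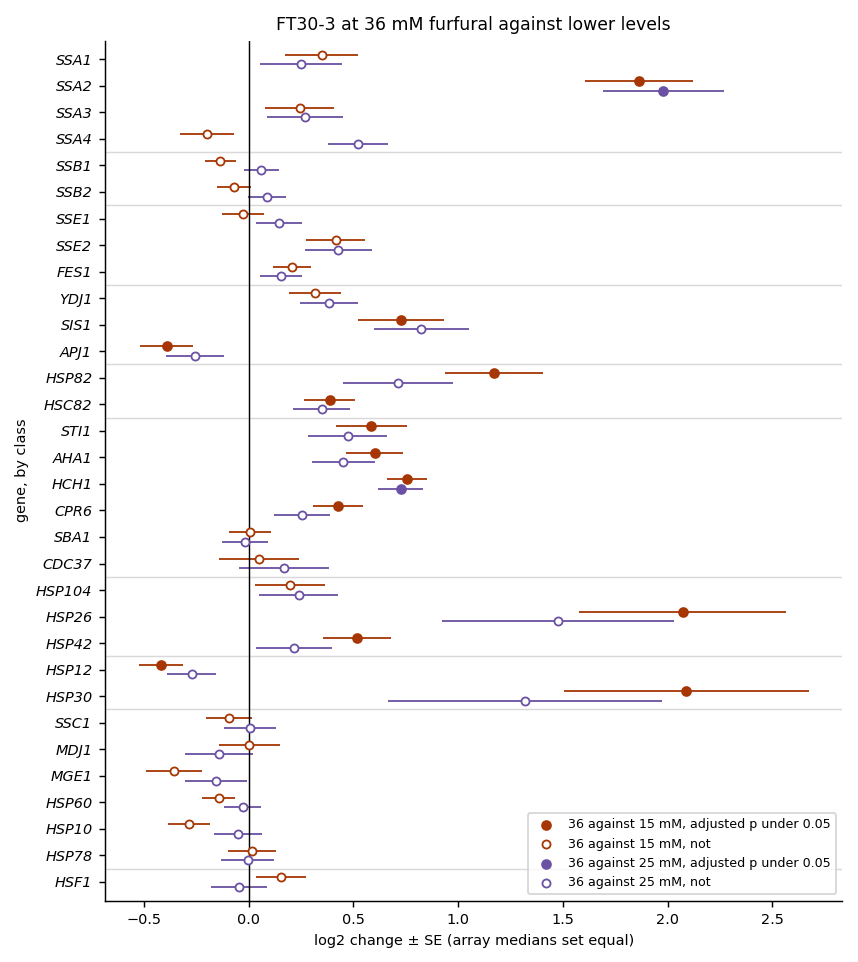
Log2 change ± SE of the 32 genes in FT30-3 at 36 mM against 15 mM (brown) and against 25 mM (purple), after array medians were set equal, with filled points at an adjusted p under 0.05. Against 15 mM there are 13 filled points, 11 to the right of 0, and against 25 mM there are 2, SSA2 and HCH1.

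SIS1, an essential J-domain partner of Hsp70, was at 963.9, 1011 and 1066 in FT30-3 at 15 mM and at 1935, 1695 and 2173 at 36 mM, with no overlap. It rose by 0.73 ± 0.20 (adjusted p = 0.026), and did not pass without replicate 1, 2 or 3 at 15 mM or replicate 3 at 36 mM (adjusted p between 0.0515 and 0.0871). YDJ1, the main J-domain partner of Hsp70 in the cytosol, was at 3183, 3390 and 3390 at 15 mM and at 5791, 4434 and 4157 at 36 mM, and 0.32 ± 0.12 did not pass (adjusted p = 0.0874), though it did on the deposited scale (0.52, adjusted p = 0.0108) and after quantile normalization (0.39, adjusted p = 0.0463). APJ1, a J-domain protein also linked to aggregate clearance, fell by 0.39 ± 0.13 (adjusted p = 0.0441), but its intensities of 1101, 982.6 and 843.4 at 15 mM and 772.8, 915.1 and 862.4 at 36 mM overlapped on the deposited scale, on which it did not pass (-0.19, adjusted p = 0.273). The fall also failed without any 1 of 10 arrays (0.0533 to 0.15), all but replicates 1 and 2 of TMB3400 at 25 mM and replicate 3 of FT30-3 at 15 mM. With a replicate block, or in a fit to the compared arrays alone, APJ1 did not pass either.

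The Hsp110 exchange factors and FES1 were not called. SSE2, the stress-induced Hsp110, read 1037, 1090 and 1030 at 15 mM and 1542, 1547 and 1751 at 36 mM in FT30-3, apart, with 0.41 ± 0.14 (adjusted p = 0.058). Its constitutive relative SSE1 differed by -0.03 ± 0.10 (adjusted p = 0.868) and FES1 by 0.21 ± 0.09 (adjusted p = 0.113). On the deposited scale SSE2 (0.61, adjusted p = 0.00726) and FES1 (0.40, adjusted p = 0.00728) both passed, and SSE2 also passed with array weights (0.00739) and in a fit to the compared arrays alone (0.0431). SSB1 and SSB2, the Hsp70 proteins bound to translating ribosomes, differed by -0.14 ± 0.07 and -0.07 ± 0.08. They are near-identical copies whose signals cannot be fully told apart, and SSB1 lay at 82% to 96.7% of the brightest probe set on each array, so a rise would be hard to see there. With array weights SSB1 was called as lower (adjusted p = 0.0104), where 24.6% of all genes were lower. A second probe set for SSB1 gave -0.06 ± 0.10 in the fit used here.

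HSP26 and HSP30 had the largest log2 rises of the 32 from 15 to 36 mM, and the largest standard errors. HSP26, a small heat shock gene whose protein holds unfolding proteins in a state from which they can be refolded, was at 685.4, 637.1 and 758.3 in FT30-3 at 15 mM, 1307 and 1047 at 25 mM, and 1258, 5750 and 5162 at 36 mM. HSP30, a plasma membrane protein that restrains the proton pump, was at 384, 364 and 445.3 at 15 mM, 1023 and 559.6 at 25 mM, and 609.9, 3293 and 3625 at 36 mM. For both, replicate 1 at 36 mM lay within the 25 mM range, and the other 2 arrays were several times higher.

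HSP26 rose by 2.07 ± 0.49 from 15 to 36 mM (adjusted p = 0.0126) and HSP30 by 2.09 ± 0.59 (adjusted p = 0.0264). Without replicate 1 at 36 mM the changes were 2.79 ± 0.28 (adjusted p = 0.000194) and 2.93 ± 0.34 (adjusted p = 0.00039), and against 25 mM both genes passed as well (2.19 ± 0.31 with adjusted p = 0.00345, and 2.16 ± 0.37 with adjusted p = 0.00887), which they did not with it. HSP30 did not pass without replicate 1, 2 or 3 at 15 mM or replicate 2 or 3 at 36 mM (adjusted p between 0.0559 and 0.0837). HSP30 also failed in a fit to the compared arrays alone. HSP26 passed there and whichever array was left out. Replicate 1 at 36 mM was the highest of the 3 for SSA2, HSP82, HSC82, STI1, AHA1, CPR6 and YDJ1. What set it apart was not tested.

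HSP42, a small heat shock protein that gathers misfolded proteins into deposits, was at 2442, 2425 and 2588 at 15 mM, 4197 and 2792 at 25 mM, and 4688, 3968 and 3658 at 36 mM. It rose by 0.52 ± 0.16 (adjusted p = 0.0428), with no overlap between 15 and 36 mM, and did not pass without any 1 of 8 arrays (0.0547 to 0.116). These were the 3 at 15 mM, replicates 1 and 2 at 36 mM, both of TMB3400 at 15 mM and its replicate 1 at 25 mM. With a replicate block HSP42 did not pass either. HSP104 was at 5005, 3548 and 4959 at 15 mM and at 5822, 5911 and 5821 at 36 mM, where the 3 arrays lay close together and above those at 15 mM on the deposited scale but overlapped them once medians were equal, and the difference of 0.20 ± 0.17 did not pass (adjusted p = 0.417). HSP104 and SSA2 are neighbours on chromosome XII with 1 gene between them, and of the pair SSA2 was called.

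HSP12, a small membrane-associated protein of stressed and slowly growing cells, went the other way. It was at 16650, 15560 and 16230 at 15 mM and 12010, 13660 and 16170 at 36 mM, and fell by 0.42 ± 0.11 (adjusted p = 0.0166). The groups overlapped on the deposited scale but not once medians were equal. The fall did not pass on the deposited scale (-0.22, adjusted p = 0.117) or after quantile normalization (-0.24, adjusted p = 0.102), nor without replicate 1 or 3 at 15 mM (0.0554 and 0.0529), and HSP12 lay between 64.9% and 91.5% of the array maximum.

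None of the 6 mitochondrial chaperones was called from 15 to 36 mM in the fit used here. With array weights HSP60, HSP10, SSC1 and MGE1 were called as lower (-0.21, -0.19, -0.21 and -0.26, adjusted p = 0.00633 to 0.0303), where 24.6% of all genes were lower, but on the deposited scale HSP60 and SSC1 lay above 0 (0.06 and 0.11) and neither passed. HSP10 was also called as lower with a variance trend and robust fit, and MGE1 with a replicate block. HSP60 and HSP10, the chaperonin ring and its lid, differed by -0.14 ± 0.08 and -0.28 ± 0.10. SSC1, the mitochondrial Hsp70, differed by -0.09 ± 0.11, its J-domain partner MDJ1 by 0.00 ± 0.15, its exchange factor MGE1 by -0.36 ± 0.13 (adjusted p = 0.0731) and the disaggregase HSP78 by 0.02 ± 0.11. For SSC1, MDJ1 and HSP78 the 95% intervals end at or below 0.33, which leaves out a rise of the size seen in HSP82. HSP10 and HSP60 are bright, at 63.5% to 79.3% and 55.6% to 67% of the array maximum. MDJ1 and HSP12 lie with 1 gene between them on chromosome VI. The RNA of HSF1, the regulator, read 1061, 1004 and 951.9 at 15 mM and 1514, 1254 and 1111 at 36 mM, and did not pass (0.15 ± 0.12, adjusted p = 0.372).

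**Figure D3:**
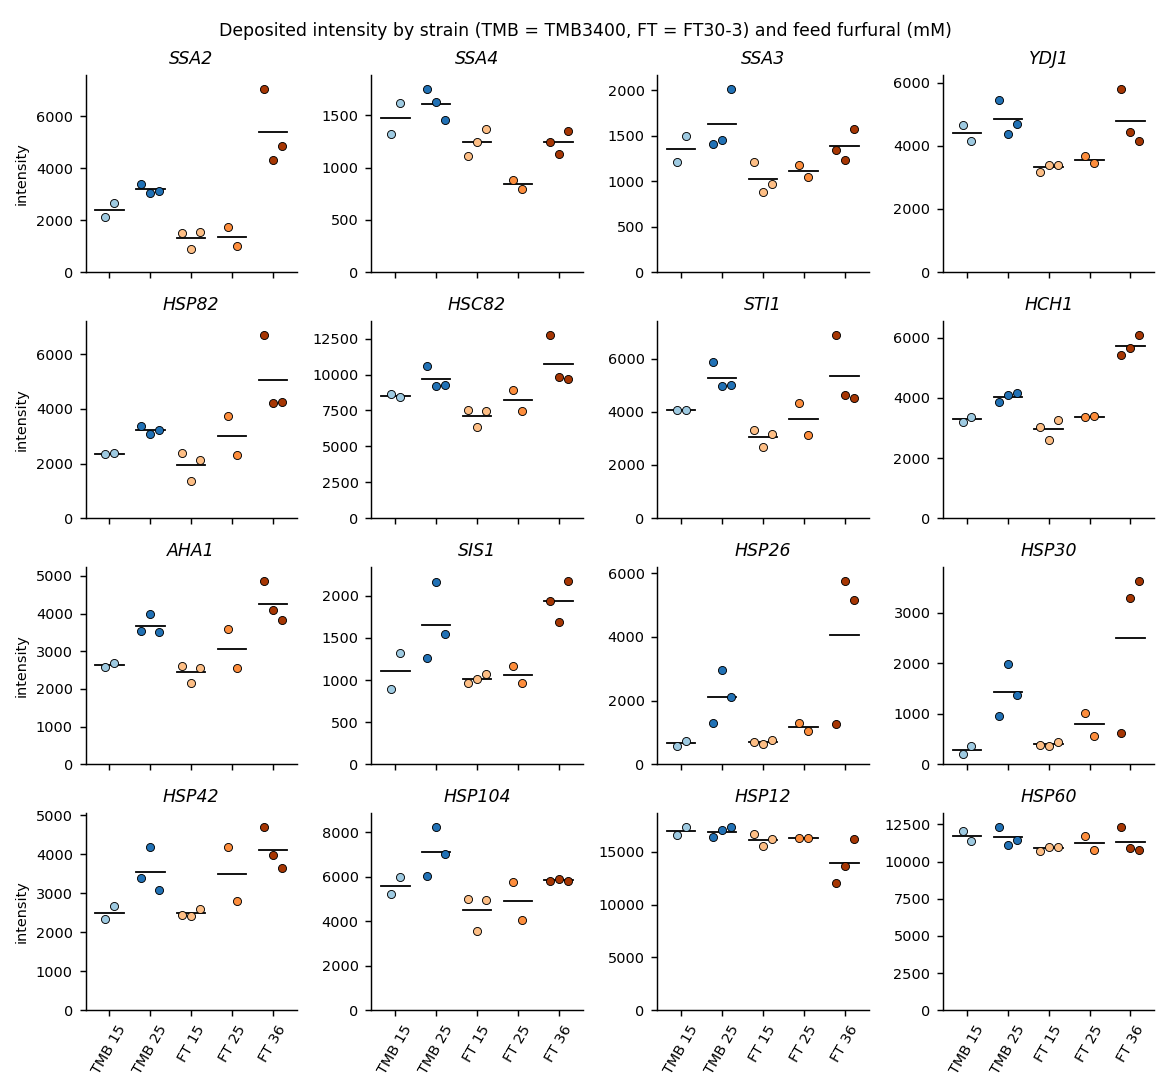
Deposited intensity (linear axis from 0) of 16 of the genes on each array, by strain and feed furfural in mM, with a line at each group mean. SSA2, HSP82 and HCH1 are highest in FT30-3 at 36 mM, HSP26 and HSP30 show 1 low array among the 3 there, SSA4 is lowest in FT30-3 at 25 mM, and HSP60 is level.

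From 25 to 36 mM in FT30-3, 2 of the 32 genes rose, SSA2 and HCH1, and 0 fell. The median change was 0.23 against 0.01 over all genes, of which 3.40% were higher and 3.73% lower. At an unadjusted p under 0.05 there were 12 of the 32, against 22.5% of all genes. SIS1 (0.82 ± 0.23, adjusted p = 0.0527) and SSA4 came close, and the count was 4 on the deposited scale, after quantile normalization, and without replicate 1 of FT30-3 at 36 mM. In these settings 3.51% to 4.07% of all genes were higher. The count was 1, SSA2, in a fit to the compared arrays alone, where 0.661% of all genes were higher. The 25 mM group has 2 arrays, of which replicate 1 was the higher in 26 of the 32 genes with array medians set equal.

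From 15 to 25 mM in the parent, 0 of 32 genes were called, where 1.63% of all genes were. At an unadjusted p under 0.05 there were 4, against 9.47% of all genes. HSP30 went from 205.6 and 363 to 958.2, 1982 and 1372, a difference of 2.19 ± 0.65 (adjusted p = 0.191), and HSP26 from 570.7 and 741.6 to 1289, 2972 and 2110, a difference of 1.49 ± 0.55 (adjusted p = 0.377). In both genes the groups did not overlap. The spread of these genes in the fit comes in part from replicate 1 of FT30-3 at 36 mM, an array outside the comparison, and without it both passed (HSP30 adjusted p = 0.00681, HSP26 adjusted p = 0.0225). In a fit to the 5 parent arrays alone, which also leaves it out, neither passed (0.0787 and 0.191). The median change over the 32 was 0.06 in TMB3400 and -0.02 in FT30-3.

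Whether the step from 15 to 25 mM differed between strains was tested as an interaction, and 0 of 32 genes passed, against 0.679% of all genes. One, SSA4 (-0.72 ± 0.20, adjusted p = 0.309), had an unadjusted p under 0.05, as did 3.56% of all genes. For HSP30 the strains differed by -1.42 with a 95% interval of -3.46 to 0.62, which holds both 0 and a large difference.

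FT30-3 and its parent were then compared at the same feed level. At 15 mM, 0 of 32 genes were called, where 2.29% of all genes were (2.09% higher and 0.202% lower), and 3 had an unadjusted p under 0.05, against 11.8% of all genes. The evolved strain was lower than the parent in 25 of the 32 genes, against 2914 of all 5449, with a median of -0.13 against -0.02 over all genes. At 25 mM, 2 genes were lower and 0 higher, where 1.84% of all genes were lower. There 28 of the 32 lay below 0, against 2824 of all 5449, with a median of -0.13 against -0.01. In the average over both doses 4 genes were lower and 0 higher, where 3.60% of all genes were lower. On average 27 of 32 lay below 0, against 2860 of all 5449, with a median of -0.16 against -0.01. The counts of genes below 0 were not tested, and most of these differences were not called.

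**Figure D4:**
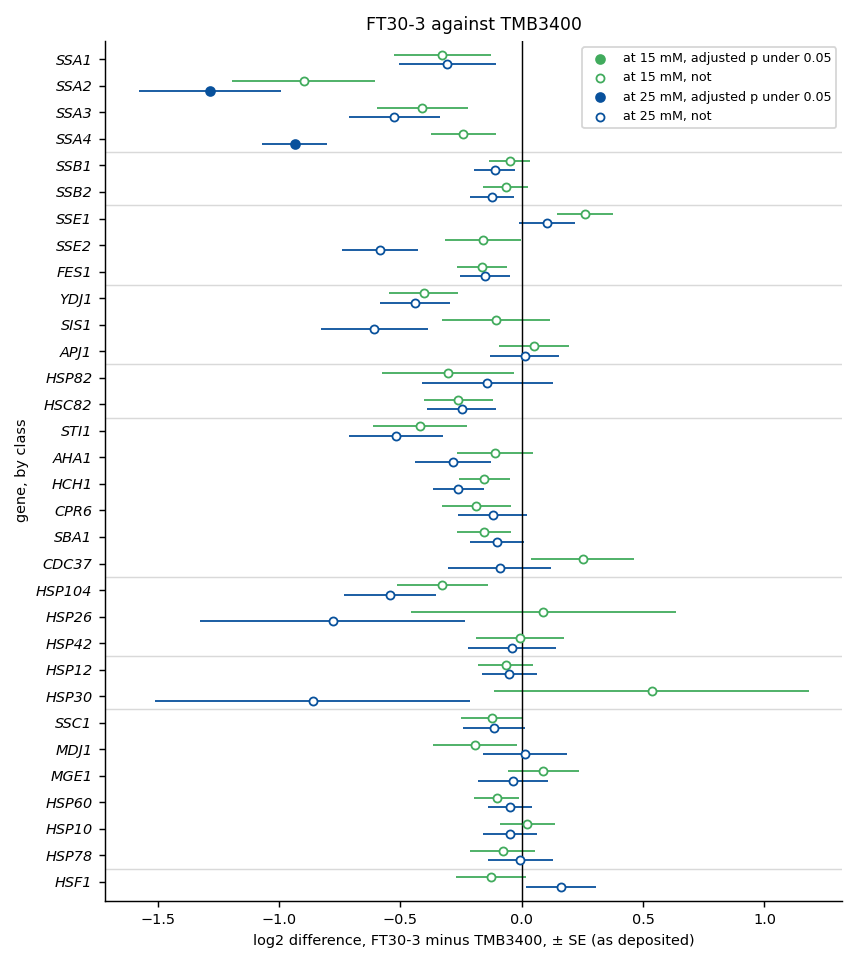
Log2 difference ± SE of the 32 genes, FT30-3 minus TMB3400, at 15 mM (green) and 25 mM (blue) on the deposited scale, with filled points at an adjusted p under 0.05. Only SSA2 and SSA4 at 25 mM are filled, both to the left of 0.

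The 4 genes lower on average were 3 of the 4 cytosolic Hsp70 genes and the J-domain gene YDJ1. SSA2 was lower by a log2 difference of -1.29 ± 0.29 at 25 mM (adjusted p = 0.0249) and -1.09 ± 0.21 on average (adjusted p = 0.00621). At 15 mM it was -0.90 ± 0.29 and did not pass (adjusted p = 0.185), although the arrays did not overlap there either. At 25 mM it also did not pass without replicate 1, 2 or 3 of TMB3400 or replicate 2 of FT30-3 at 25 mM (adjusted p between 0.06 and 0.19). SSA4 read 1323 and 1619 in TMB3400 at 15 mM and 1751, 1632 and 1455 at 25 mM, against the FT30-3 values given above. It was lower by -0.94 ± 0.13 at 25 mM (adjusted p = 0.00188) and -0.59 ± 0.10 on average (adjusted p = 0.00242), with no overlap at 25 mM and overlap at 15 mM.

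YDJ1 read 4657 and 4143 in TMB3400 at 15 mM and 5450, 4369 and 4688 at 25 mM. In FT30-3 it read 3661 and 3442 at 25 mM, so that with the 15 mM values above all 5 evolved arrays lay below all 5 parent arrays. It was lower by -0.42 ± 0.10 on average (adjusted p = 0.0217), and the call was lost on leaving out replicate 1 of the parent at 15 mM (0.0984) or replicate 1 or 2 of FT30-3 at 25 mM (0.0528 and 0.0731). SSA3 read 1206 and 1501, then 1404, 1456 and 2013 in TMB3400, and 1210, 882 and 974, then 1180 and 1051 in FT30-3, which overlapped at 15 mM. Its average difference was -0.47 ± 0.13 (adjusted p = 0.0471), and it did not pass after any of 9 single arrays was left out, among them TMB3400 at 15 mM replicate 2 (adjusted p = 0.179). The count of lower genes was 2 without replicate 2 of FT30-3 at 25 mM, where 2.35% of all genes were lower. It was 8 without replicate 1 of FT30-3 at 36 mM, where 7.80% of all genes were lower. STI1, SSE2, HSC82 and FES1 then joined the 4. At 25 mM it was 1 without replicate 2 or 3 of TMB3400 or replicate 2 of FT30-3, against 0.973% to 1.17% of all genes. It was 5 there without replicate 1 of FT30-3 at 36 mM, against 3.91% of all genes.

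STI1 came closest of the others on average. Its parent arrays read 4051 and 4087 at 15 mM and 5888, 4963 and 5017 at 25 mM, with -0.47 ± 0.14 (adjusted p = 0.0521), and SSE2 and HSP104 gave -0.37 ± 0.11 and -0.44 ± 0.13 (adjusted p = 0.0561 and 0.0614). The mitochondrial chaperones lay between -0.12 and 0.03 on average. Side by side at each strain's highest feed level, without a test because the doses differ, STI1 had a mean of 5290 ± 519 (SD, n = 3) in TMB3400 at 25 mM and 5344 ± 1330 (SD, n = 3) in FT30-3 at 36 mM. AHA1 had 3677 ± 265 and 4254 ± 539, YDJ1 4836 ± 555 and 4794 ± 875, SSA4 1613 ± 149 and 1243 ± 114, and SSA2 3196 ± 192 and 5415 ± 1440 in the same order. Thus STI1 and YDJ1 were near each other, SSA4 was lower in FT30-3 and SSA2 higher.

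HSP82 and SSE1 lie on chromosome XVI, whose 424 measured genes had a median strain difference of 0.44 at 15 mM, 0.44 at 25 mM and 0.45 on average, and a median dose change near that of all genes. HSP82 lay below the chromosome's median strain difference in each comparison, a gap that was not tested. Its differences were -0.30 ± 0.27, -0.14 ± 0.27 and -0.22 ± 0.19, with 0.472%, 2.36% and 0.236% of the chromosome's genes below it. SSE1 gave 0.26 ± 0.12, 0.10 ± 0.12 and 0.18 ± 0.08, with 20.3%, 11.6% and 13% of those genes below it. SSE1 was 1 of 7 genes of the 32 above 0 at 15 mM. Neither gene passed the test in a strain comparison.

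Other protein quality control and stress genes were set beside the 32 in the comparison of 36 with 15 mM. In it 11.0% of all genes were higher and 11.2% lower. On the deposited scale these shares were 27.4% and 4.73%, and after quantile normalization 11.1% and 9.29%. The cytosolic chaperonin TRiC and prefoldin, which fold actin and tubulin, had 4 of 15 genes higher and 0 lower (CCT3 0.55 ± 0.11, CCT2 0.56 ± 0.15, CCT5 0.39 ± 0.11, TCP1 0.38 ± 0.11, adjusted p = 0.00421 to 0.0298), with a median of 0.20, and 9 of 15 higher on the deposited scale, with a median of 0.40. CCT2, CCT5 and TCP1 did not pass without replicate 1 of FT30-3 at 15 mM (0.0832, 0.0911 and 0.0961), nor TCP1 without replicate 2 or 3 (0.0503 and 0.0835). CCT2, CCT5 and TCP1 also failed in a fit to the compared arrays alone. Proteasome subunits had 19 of 32 higher and 0 lower, with a median of 0.36 (29 higher on the deposited scale and 25 after quantile normalization), among them RPT6 (0.81 ± 0.11, adjusted p = 0.000602). In a fit to the compared arrays alone PRE10, PRE5, PRE7, PUP1, RPN12, RPN2, RPT4 and RPT5 did not pass. Leaving out 1 array also ended the call of PRE10 (any 1 of 4 arrays), PRE5 (of 5), PUP1 (of 4), RPN2 (of 3) and RPT5 (of 12). Of 8 measured genes in a list of 10 other Hsf1 targets 2 were higher (6 on the deposited scale and 4 after quantile normalization), RPN4, the activator of proteasome genes (0.61 ± 0.09, adjusted p = 0.000801), and CUR1, a protein sorting factor (1.23 ± 0.30, adjusted p = 0.014). CUR1 read 422.8, 354.4 and 318.9 at 15 mM and 695.4, 1060 and 1263 at 36 mM, without overlap.

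Genes of the endoplasmic reticulum's folding machinery were 0 of 15 called, with a median of -0.12 that was 0.08 on the deposited scale, where 2 were higher. Other mitochondrial quality control genes were 0 of 9 called, with a median of -0.12 that was 0.08 on the deposited scale, where 1 was higher. Of 5 partners of ribosome-bound Hsp70, EGD1 was lower (-0.23 ± 0.07, adjusted p = 0.0441), but 0 were lower and 2 higher on the deposited scale. EGD1 failed without any 1 of the 12 arrays other than replicate 1 of FT30-3 at 36 mM (0.0525 to 0.123). It also failed after quantile normalization, with a replicate block and in a fit to the compared arrays alone. Of 14 other co-chaperones, 1, DJP1, was lower (-0.45 ± 0.09, adjusted p = 0.00447), but 0 were lower and 3 higher on the deposited scale. For all 4 lists, the deposited-scale counts stand beside 27.4% of all genes higher and 4.73% lower.

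Msn2 and Msn4 target genes had 0 of 20 higher and 8 lower, with a median of -0.28. On the deposited scale, where 27.4% of all genes were higher and 4.73% lower, 2 were higher and 4 lower, with a median of -0.08. Catalase gene CTT1 was at 9021, 7324 and 6075 at 15 mM and 4168, 4359 and 5081 at 36 mM, without overlap, and fell by 0.91 ± 0.16 (adjusted p = 0.00309). RTN2 fell by 1.09 ± 0.24 (adjusted p = 0.00765), MSC1 by 0.86 ± 0.16 (adjusted p = 0.00391) and HOR7 by 0.45 ± 0.09 (adjusted p = 0.00397), and these 4 were called under all alternatives run. HSP12 moved in the same direction as they did, and HSP26 in the opposite one. Among 7 stress regulators, MSN4 was lower (-0.71 ± 0.19, adjusted p = 0.0242) and SKN7 higher (0.58 ± 0.18, adjusted p = 0.0384), and MSN4 did not pass on the deposited scale. MSN4 also failed without replicate 1 of FT30-3 at 15 mM or its replicate 1 or 2 at 36 mM (0.0554 to 0.0961). SKN7 failed without either parent array at 15 mM, replicate 1 or 2 of FT30-3 at 15 mM, or its replicate 1 at 36 mM (0.0536 to 0.115). In a fit to the compared arrays alone SKN7 did not pass either.

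**Figure D5:**
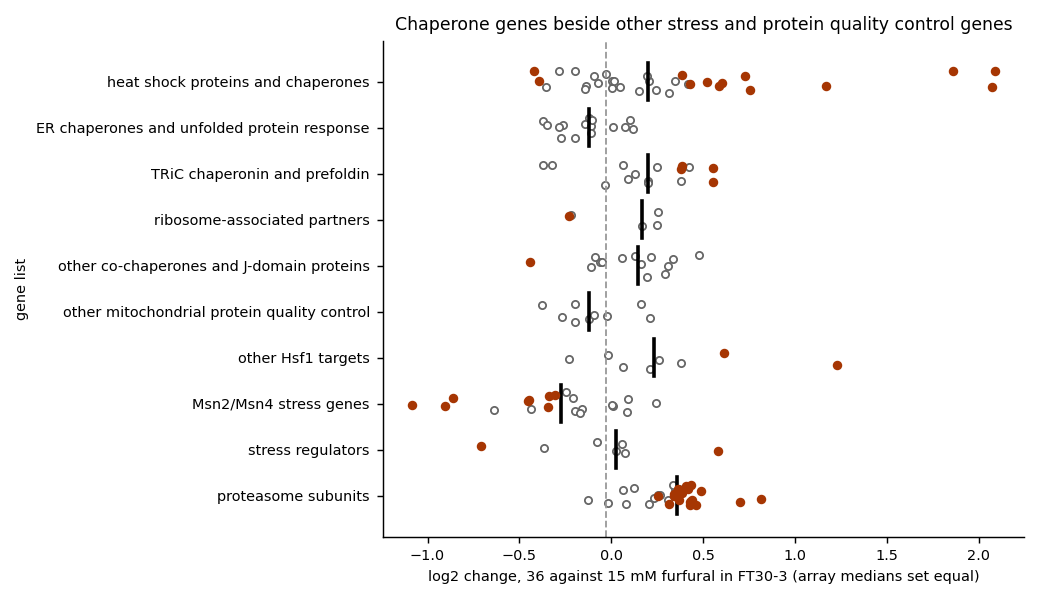
Log2 change from 15 to 36 mM furfural in FT30-3 (array medians set equal) for each gene of the 32 and of 9 other lists, 1 point per gene, filled brown at an adjusted p under 0.05, with a black bar at each list's median and a dashed line at the median of all genes. The proteasome median of 0.36 and the chaperone median of 0.20 lie to the right of the dashed line, and the Msn2 and Msn4 median of -0.28 to its left.

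Between the strains, averaged over both doses, 10.8% of all genes were called. Among the stress regulators MSN4 was lower (-0.67 ± 0.16, adjusted p = 0.0204) and MSN2 higher (0.34 ± 0.09, adjusted p = 0.0279) in FT30-3. MSN4 did not pass without either parent array at 15 mM, replicate 2 of FT30-3 at 15 mM or either of its arrays at 25 mM (0.051 to 0.0875). MSN2 did not pass without either parent array at 15 mM, its replicate 2 or 3 at 25 mM, replicate 1 or 2 of FT30-3 at 15 mM or its replicate 1 at 25 mM (0.058 to 0.108). Of the 32 proteasome genes 2 were higher, RPN7 (0.45 ± 0.06, adjusted p = 0.000811) and PRE2 (0.27 ± 0.06, adjusted p = 0.0155), and both lie on chromosome XVI, whose genes had a median of 0.45. The call of PRE2 was lost on leaving out replicate 1 of the parent at 15 mM (0.0802) or replicate 2 of FT30-3 at 25 mM (0.0578). The J-domain gene XDJ1 (-0.35 ± 0.10, adjusted p = 0.0458) and the phosphoglucomutase gene PGM2 (-0.28 ± 0.08, adjusted p = 0.0491) were lower, and failed without any 1 of 10 and of 11 arrays (up to 0.134 and 0.169). PGM2 also failed after quantile normalization and with a replicate block. The endoplasmic reticulum J-domain gene SCJ1 was higher (0.51 ± 0.10, adjusted p = 0.0066). SCJ1 read 1695 and 1310, then 1747, 1514 and 1463 in TMB3400, and 1881, 1984 and 2043, then 2624 and 2217 in FT30-3, all 5 above all 5. TRiC and prefoldin genes had 0 of 15 called with a median of -0.16. MDJ2, a J-domain gene in the list of other Hsf1 targets, lay at or below background in TMB3400 at 25 mM (16.9 to 23.4). Its mean in FT30-3 at 25 mM was 59.4, at least 1.64-fold higher. The fitted log2 difference at 25 mM, which uses the values below background, was 1.48 (adjusted p = 0.00034). At 15 mM MDJ2 was not called between the strains, and read 67.8 and 53.2 in TMB3400 and 48.15, 46.1 and 49.35 in FT30-3. Its strain by dose interaction passed in the fit used here and in all 22 alternatives.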

How the data were processed

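For each probe set and array the authors deposited 1 intensity on a linear scale. The submitters' processing notes name R 2.7.2, while the sources used here do not say how signals were summarised and normalized. Biotin-labelled cRNA was hybridised to Affymetrix arrays, per the labels' protocols. The platform table gave 1 S. cerevisiae gene to 5498 of 10928 probe sets, and gene order and chromosomes come from the RefSeq table R64. Each deposited intensity became log2(intensity + 1), in which changes of dim genes look smaller. All 13 arrays entered 1 fit of 5 group means (limma 3.58.1 in R 4.3.3, Benjamini-Hochberg over the 5498 probe sets). Strain comparisons used the deposited scale, and dose comparisons and the interaction used arrays with equal medians. All 32 genes were named, and from each other list up to 4 called genes with the smallest p. Genes and lists were chosen with earlier results of these data known. Alternatives were the other scaling, quantile normalization, a filter on dim probe sets, a variance trend with robust fit, array weights, fits to the compared arrays, a replicate block, a pseudocount of 16, means over probe sets and leaving out each array. The code was tested on simulated data. The p-values set each difference against the spread within groups, pooled over all 5 groups and moderated across probe sets. The number of arrays limits the precision. Promoter and protein sequences were not analysed here. Figures used matplotlib 3.10.9.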

Additional observations from a re-analysis of the deposited data

How the results depend on the processing

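The counts of chaperone genes called depended on the setting. With array weights the counts were 2 for the strain difference at 15 mM (main 0), 7 for the average (main 4), 2 for 25 against 15 mM in TMB3400 (main 0), 0 for it in FT30-3 (main 1), 19 for 36 against 15 mM (12 higher and 7 lower, main 13; 20.1% and 24.6% of all genes) and 4 for 36 against 25 mM (main 2). The last was also 4 on the deposited scale, after quantile normalization, with a variance trend and robust fit, and with a pseudocount of 16. With array weights 2.18% and 6.46% of all genes were lower for the strain difference at 15 mM and the average. The share higher was 1.95% for 25 against 15 mM in TMB3400 and 2.83% for 36 against 25 mM. In fits to the compared arrays alone the counts were 8 for 36 against 15 mM, 1 for 36 against 25 mM and 0 for 25 against 15 mM in FT30-3. With 1 array left out at a time the counts ran from 1 to 5 for the strain difference at 25 mM, 2 to 8 for the average, 0 to 2 for 25 against 15 mM in TMB3400, 0 to 1 for it in FT30-3, 6 to 13 for 36 against 15 mM, 2 to 4 for 36 against 25 mM, and 0 throughout for the strain difference at 15 mM and the interaction. What moved the counts was not tested. Over 22 alternatives, 5 of the 11 genes that rose from 15 to 36 mM (SSA2, HSP82, AHA1, HCH1 and HSP26) stayed called in all, and no called gene changed sign.

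With a replicate block, 25 against 15 mM in FT30-3 gave 0 genes, and 36 against 15 mM lost HSP42 and APJ1 and gained MGE1. Samples that share a number deviated together at r over 0.1 in 13 of 23 pairs (-0.394 to 0.579), against -0.567 to 0.492 over 44 pairs of different numbers. Deviations in a group of 2 arrays mirror each other, so these values cannot decide whether the numbers pair samples. The main fit did not pair them. For all genes the count moved by over 1.5 times with the block (73 against 125 at 15 mM between strains, 23 against 37 for the interaction), with array weights (434 at 15 mM between strains; 190 against 89 for 25 against 15 mM in TMB3400; 2435 against 1213 for 36 against 15 mM), in fits to the compared arrays alone (188 against 338 for the strain difference at 25 mM, 56 against 89 for the dose step of TMB3400, 733 against 1213 for the step of FT30-3 from 15 to 36 mM and 74 against 388 for its step from 25 to 36 mM), and on the deposited scale (156 against 89 and 204 against 117 for 25 against 15 mM in TMB3400 and FT30-3). With 1 array left out the all-gene counts ran from 7 (without TMB3400 15 mM replicate 2) to 258 at 15 mM between strains, from 121 (without FT30-3 25 mM replicate 1) to 584 at 25 mM, 341 to 985 for the average, 31 to 129 and 74 to 179 for 25 against 15 mM in TMB3400 and FT30-3, 737 to 1287 for 36 against 15 mM, 105 (without FT30-3 25 mM replicate 1) to 417 for 36 against 25 mM and 21 to 49 for the interaction. The highest of each was without FT30-3 36 mM replicate 1. Groups of 2 or 3 arrays, bright probe sets near the array maximum and the absence of a furfural-free group limit what can be read from these values.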
